A study of Mus musculus with 6 samples.

Results

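The genes described here encode Foxj1, other regulators of multiciliated cells, and the parts of the motile cilium. They were chosen by symbol: Foxj1, Mcidas, Gmnc, Ccno, Hydin, Ccdc39, Ccdc40, the tektins Tekt1 to Tekt5, and all symbols beginning with Dnah, Dnai, Dnal, Dnaaf, Rsph, Cfap, Spag or Drc in the form that these families use. Of the 25302 genes in the table, 97 matched, and no member symbol occurred more than once. Gmnc matched no gene in the table and so is not analysed here. The 97 genes fell into 3 regulators, 15 dynein heavy chains, 7 dynein intermediate or light chains, 7 dynein assembly factors, 8 radial spoke genes, 5 genes of the nexin-dynein regulatory complex or the axonemal ruler, Hydin, 35 Cfap genes, 4 tektins, 10 Spag genes and 2 antisense RNAs (Dnah2os and Spag17os). The symbol rule also brings in genes whose known roles lie outside cilia, such as Spag9, a scaffold of JNK signalling, and Spag5, a protein of the mitotic spindle.

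RNA was sequenced from biliary epithelial cells of mouse liver, the cells that line the bile ducts. The 3 Control samples had the genotype Sox9fl/fl, and the 3 Sox9cKO samples had the genotype Sox9fl/fl:AlbCre+/-, so all 6 carried floxed alleles of Sox9, a transcription factor gene of bile duct cells. AlbCre places Cre recombinase under the promoter of the albumin gene, which is active in hepatocytes and in the embryonic precursors that hepatocytes share with bile duct cells. The Control genotype carried no Cre, so effects of Cre itself and of Sox9 deletion cannot be told apart. The labels do not say whether the samples of a group came from separate animals, so the p-values measure only the spread between these samples.

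Motile cilia beat through rows of dynein motors on the microtubule doublets of their axoneme. Heavy chains carry the motor, intermediate and light chains anchor and regulate it, assembly factors fold the complexes in the cytoplasm, and radial spokes, the nexin-dynein regulatory complex and the central pair pass on the signals that shape the beat. Foxj1 is the transcription factor that switches on motile axoneme genes, often together with RFX factors, while Gmnc, Mcidas and Ccno act upstream or beside it when a cell makes many centrioles. Bile duct cells normally carry a single primary cilium, a non-motile sensory cilium built by intraflagellar transport.

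Reads assigned to genes numbered between 11883496 and 16191990 per sample. Sox9 had 6211, 6043 and 6293 normalized reads in Control, in the order of the replicate numbers as throughout, and 3363, 3165 and 3340 in Sox9cKO, so every library followed its label. A normalized read is a read count divided by the sample's size factor. The biliary marker list summed to between 162211 and 205891 normalized reads in Control and between 149955 and 215274 in Sox9cKO. Markers of multiciliated cells, 9 of 10 of which were in the table, summed to between 959.7 and 1122 in Control and between 599 and 1254 in Sox9cKO, and 0 of the 7 tested were called by limma, 1 of them (Foxj1) with an unadjusted p under 0.05. Of these 9, all but Deup1 are members described here, so their sum is no separate measure of multiciliated cells. Dnah5 alone gave 736, 719 and 889 of it in Control and 236, 869 and 798 in Sox9cKO. Other marker lists differed between libraries as well. Hepatocyte markers summed to 22610 to 35262 in Control and 29784 to 45666 in Sox9cKO, endothelial markers to 1448 to 31678 and 5237 to 32371, mesenchymal markers to 597 to 797 and 1189 to 2782, leukocyte and erythroid markers to 268 to 513 and 204 to 253, and cycling markers to 442 to 2474 and 867 to 1885. On the mesenchymal list limma called 1 of 8 genes, Msln, with a mean of 335 in Control and 1408 in Sox9cKO. Of 8 hepatocyte markers it called 1, Tat, with means of 91.9 and 437. Of 13 biliary markers it called 2, Sox9 lower and Krt7 higher, with Krt7 means of 1948 and 3958. No endothelial, leukocyte and erythroid or cycling marker was called. Among all tested genes 2.97% were called by limma and 17.8% had an unadjusted p under 0.05. The median log2 fold change of the mesenchymal list was 0.06, with 5 genes above 0 and 3 below. It was 0.42 for the hepatocyte list (7 above, 1 below) and -0.06 for the biliary list (4 above, 9 below). The part of the cells of all these lists in the results was not tested. In bulk samples fewer cells of a type and less RNA per cell cannot be told apart.

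Promoters are shown first, because of the share of the RFX motif. Of the searched motifs, its share among the members stood farthest, in percentage points, from that among other genes. RefSeq promoter windows (GRCm38.p6, 250 bases before to 50 after the gene's start) were given for 74 members. The letters GTTGCC, or GGCAAC on the other strand, are the core of the site that RFX proteins bind, and 30 of the 74 windows (40.5%) held them. The share was 12.5% in the windows of 11338 tested genes and 12.5% in all 32851 windows. The nearest such match lay within 100 bases before the start in 15 of the 30 members (50%) and in 37.6% of the 4111 windows with a match overall. A longer X-box with both arms, GTTGC, any 3 bases and GGCAAC on either strand, which contains the shorter RFX motif and was chosen after the shorter matches had been seen, was in 4 member windows (5.41%), in 0.185% of the tested genes' windows and in 0.149% of all windows. These are the windows of Cfap44, Hydin, Cfap298 and Cfap20dc. They are printed because Cfap44 was the member whose change passed the test, with the X-box in capitals, 60 bases each, 5′ to 3′ on the gene's strand.
Cfap44: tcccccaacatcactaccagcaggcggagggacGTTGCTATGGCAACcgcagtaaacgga
Hydin: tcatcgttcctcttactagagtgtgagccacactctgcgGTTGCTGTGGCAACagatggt
Cfap298: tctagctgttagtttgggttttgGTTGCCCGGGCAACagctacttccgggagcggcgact
Cfap20dc: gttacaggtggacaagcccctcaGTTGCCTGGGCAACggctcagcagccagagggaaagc
The stretches lie at chr16:44394739-44394798 (plus strand), chr8:110266917-110266976 (plus), chr16:90935001-90935060 (minus) and chr14:8666356-8666415 (minus). The X-box begins 27 bases before the start of Cfap44, 21 before that of Hydin, 188 before that of Cfap298 and 102 before that of Cfap20dc.

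A match is a description of the letters and not a bound site. The log2 fold changes of the 4 genes with an X-box were 1.25 (Cfap44), 0.06 (Hydin), 0.39 (Cfap298) and -0.10 (Cfap20dc), so genes with the same element had different values. Among tested members, the 19 with the RFX motif had a median log2 fold change of 0.13 with 12 above 0, and the 36 without it had a median of 0.05 with 20 above 0. The forkhead letters TGTTTAC, the core bound by Foxj1 and many relatives, were in 3 of 74 member windows (4.05%), in 2.55% of tested genes and in 3.65% of all windows. The SOX letters ACAATG were in 7 member windows (9.46%), in 7.33% of tested genes and in 12.6% of all windows. The 2 dynein heavy chain genes called with the replicate block, described further on, differed in these motifs. The 250 bases before their starts are printed 5′ to 3′, with the RFX motif of Dnah10 and the forkhead letters of Dnah17 in capitals.
Dnah10: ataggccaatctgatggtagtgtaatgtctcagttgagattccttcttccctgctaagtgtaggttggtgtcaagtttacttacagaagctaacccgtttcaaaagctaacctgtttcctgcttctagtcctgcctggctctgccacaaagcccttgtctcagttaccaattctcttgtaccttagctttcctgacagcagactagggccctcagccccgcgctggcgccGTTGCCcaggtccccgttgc
Dnah17: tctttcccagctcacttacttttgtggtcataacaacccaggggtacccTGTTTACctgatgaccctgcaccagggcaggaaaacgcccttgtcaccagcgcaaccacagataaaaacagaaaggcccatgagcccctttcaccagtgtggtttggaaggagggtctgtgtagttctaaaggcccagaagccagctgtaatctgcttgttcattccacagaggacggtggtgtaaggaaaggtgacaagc
Dnah10 is at chr5:124724835-124725084 (plus strand), with the RFX motif starting 20 bases before the start. Dnah17 is at chr11:118129220-118129469 (minus strand), with the forkhead letters starting 201 bases before the start.

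**Figure D1:**
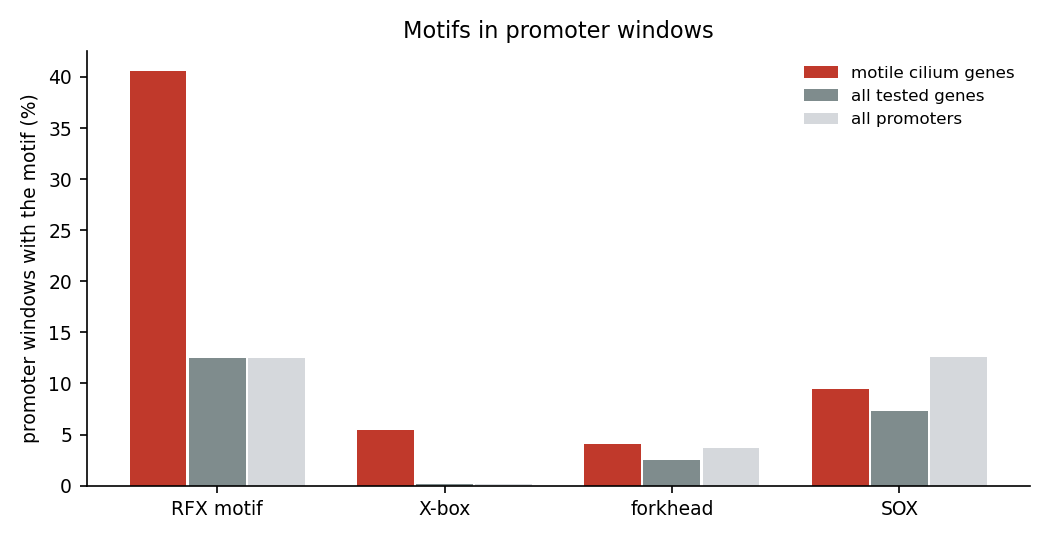
Share of promoter windows (percent, vertical axis) that hold each motif on either strand, for 74 motile cilium genes, 11338 tested genes and 32851 windows in all. The RFX motif stands at 40.5% in the motile cilium genes and 12.5% in both other sets, while the forkhead and SOX letters differ less between the sets.

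Between the genotypes, 1 of the 97 genes passed the test: Cfap44 rose. Foxj1 was higher in all 3 Sox9cKO samples than in any Control sample but was not called. Of the 97, 71 had a mean of at least 10 normalized reads and were tested. Cfap44 was the only one called (limma on log2 of the value plus 1, Benjamini-Hochberg adjusted p under 0.05), where 2.97% of all 17153 tested genes were called, 2.03% higher and 0.939% lower. In the blocked fit, where limma also takes the replicate number as a block, 3 members were called, Cfap44 higher and Dnah10 and Dnah17 lower, against 8.05% of all tested genes. An unadjusted p under 0.05 was found for 13 members, 7 higher and 6 lower, against 17.8% of all tested genes. The share of members called was below that of all tested genes in both fits, and the share with an unadjusted p under 0.05 was close to it.

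Directions among the tested members were mixed. A log2 fold change above 0 was found for 40 members and below 0 for 31, where 54.2% of all tested genes were above 0 and 45.8% below. The median was 0.07, beside 0.04 over all tested genes, and the range ran from -1.36 (Dnaaf1) to 1.25 (Cfap44). The Sox9cKO values lay wholly above the Control values for 12 members and wholly below for 8, which held for 13.4% and 10.8% of all tested genes. In all 3 same-numbered pairs 19 members were higher and 17 lower, against 26.7% and 21.8% of all tested genes.

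**Figure D2:**
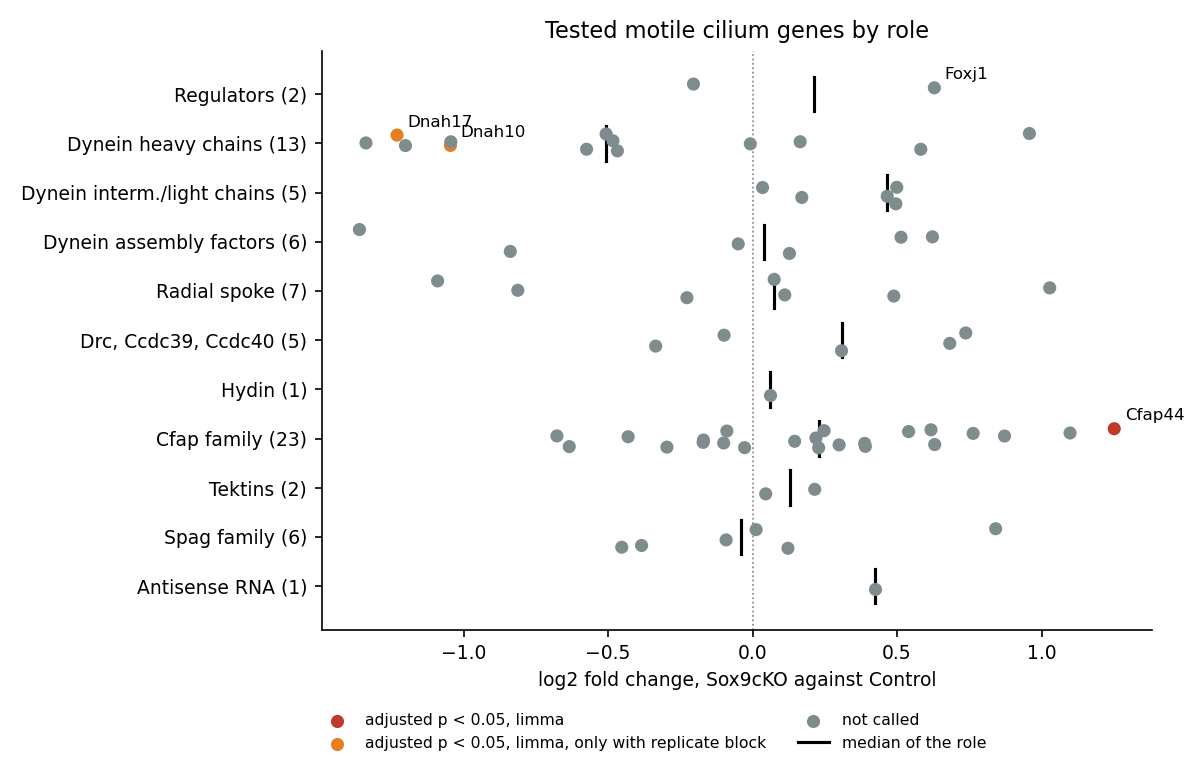
Log2 fold change (horizontal axis, Sox9cKO against Control) of the 71 tested motile cilium genes, 1 point a gene, by role with the number tested in parentheses; the bar is the median of the role. Cfap44 at 1.25 is the called gene, Dnah17 at -1.23 and Dnah10 at -1.05 are called by limma only with the replicate block (DESeq2 called Dnah17 without it), and the points of most roles lie on both sides of 0.

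Among the regulators, Foxj1 (ENSMUSG00000034227) had 192, 138 and 149 normalized reads in Control and 246, 264 and 226 in Sox9cKO. The groups did not overlap, and the mean went from 159.5 ± 28.3 to 245 ± 18.6 (SD, n = 3). Its log2 fold change of 0.63 (standard error 0.18) had a limma adjusted p of 0.123, 0.0683 in the blocked fit. The values of the 3 pairs were 0.36, 0.93 and 0.60. It was not called in any of the 16 alternatives, where the log2 fold change lay between 0.51 and 0.77. Per kilobase of exon its mean level of 77.2 normalized reads stood at percentile 61.8 of all tested genes.

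The regulators of centriole amplification were scarce beside Foxj1. Mcidas, a coactivator that starts the multiciliated program, had 3.36, 12.1 and 8.06 normalized reads in Control and 5.97, 0 and 3.40 in Sox9cKO, too few to be tested. The 0 reads in Sox9cKO replicate 2 allow up to 3 reads by counting error alone. Ccno, a cyclin family member needed for centriole amplification, had 21.9, 17.6 and 17.3 in Control and 18.9, 14.2 and 15.8 in Sox9cKO. The groups overlapped, with a log2 fold change of -0.20 (adjusted p 0.785, limma).

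Of 18 listed multiciliation regulators, 14 were in the table beside the members, and 8 were tested. Of these 8, 0 were called by limma with or without the block, and none had an unadjusted p under 0.05. DESeq2 called 1 gene over all 3 pathway lists, Lrriq1, which is not one of these regulators. Rfx1, Rfx2 and Rfx3, the RFX factors best known from ciliated cells, had log2 fold changes of 0.10, 0.41 and -0.17. Their Control means were 634 ± 57.0, 396 ± 60.6 and 426 ± 52.9 normalized reads (SD, n = 3), against 679 ± 28.02, 543 ± 190.1 and 386 ± 106 in Sox9cKO, with overlapping groups. Deup1, a scaffold of the deuterosome on which extra centrioles form, had 16.8, 15.8 and 3.46 in Control and 24.9, 50.1 and 11.3 in Sox9cKO (log2 fold change 1.204, limma adjusted p 0.442), again with overlap.

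**Figure D3:**
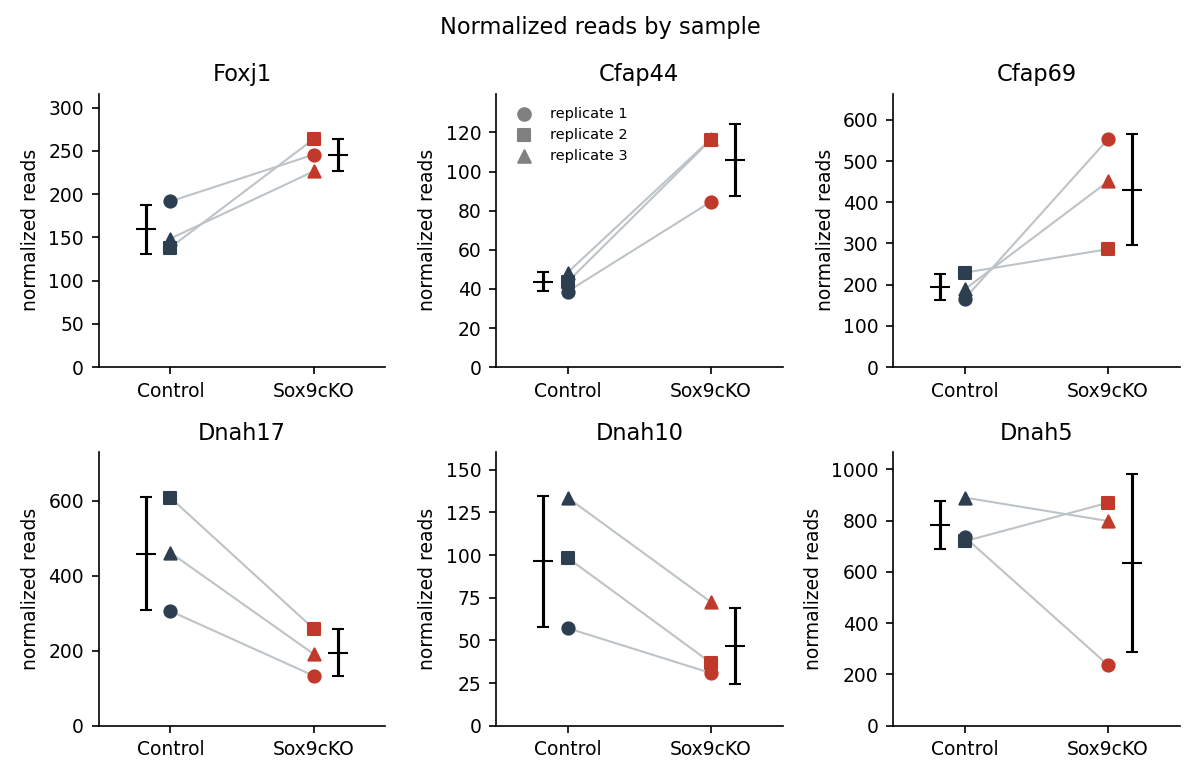
Normalized reads (vertical axis, from 0) of 6 motile cilium genes in every sample; symbols are replicate numbers, lines join same-numbered samples, and bars are the mean ± SD of 3 samples. The groups do not overlap for Foxj1, Cfap44, Cfap69 and Dnah17, they overlap for Dnah10, and Dnah5 is low in Sox9cKO replicate 1 alone.

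The dynein heavy chains, the motor subunits, mostly had lower values in Sox9cKO, but limma called none without the block. Of 15 genes 13 were tested, 10 had a log2 fold change below 0 and 3 above, and the median was -0.51. The Sox9cKO values lay wholly below the Control values for 5 and wholly above for 1, and 7 were lower in all 3 pairs. Over all tested genes 45.8% were below 0, 10.8% lay wholly below, 13.4% lay wholly above and 21.8% were lower in all 3 pairs. The heavy chain median stayed between -0.65 and -0.46 in the 6 fits that each left out 1 sample. It was -0.62 with quantile normalization and -0.50 with TMM factors, both with 10 of 13 below 0. Because limma called 0 and 4 had an unadjusted p under 0.05, all lower, these counts are a description. Over all tested genes 17.8% had an unadjusted p under 0.05 by limma.

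Dnah17 (ENSMUSG00000033987), an outer arm heavy chain best known from sperm, had 306, 609 and 462 normalized reads in Control and 133, 259 and 191 in Sox9cKO. The groups did not overlap, and the mean went from 459 ± 151 to 195 ± 62.9 (SD, n = 3). Within the 3 pairs the log2 differences were -1.19, -1.23 and -1.27, much closer together than the values of a group. The log2 fold change of -1.23 (standard error 0.32) had a limma adjusted p of 0.103, and 0.00332 in the blocked fit. edgeR gave an adjusted p of 0.0994, falling to 0.00403 with the block, and DESeq2 gave 0.00382. Its exons overlap Pgs1 on the opposite strand (GENCODE M21), and whether counting used the strand is not given in the sources used here. Pgs1 itself had a log2 fold change of 0.09 (adjusted p 0.843 by limma).

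Dnah10 (ENSMUSG00000038011), an inner arm heavy chain, had 57.2, 98.4 and 134 normalized reads in Control and 30.8, 36.9 and 72.5 in Sox9cKO. Each Sox9cKO sample was lower than the Control sample of the same number, but the groups overlapped. The log2 fold change was -1.05 (standard error 0.42), with a limma adjusted p of 0.255, 0.0397 in the blocked fit. It was named after its values were seen, because it was called with the block. Its exons overlap Gm43777, an annotated gene on the opposite strand.

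Dnah14 had 20.2, 13.9 and 18.4 normalized reads in Control and 3.98, 7.56 and 7.92 in Sox9cKO (log2 fold change -1.34, limma adjusted p 0.148), with no overlap between groups. Several further heavy chains were looked at after their values were seen. Dnah2, an inner arm chain, had 217, 201 and 290.3 in Control and 140.3, 151 and 180.0 in Sox9cKO (-0.57, adjusted p 0.190), and its groups did not overlap either. Dnah12 had 130.3, 306 and 197 against 51.7, 100.2 and 169.8 (-1.04, limma adjusted p 0.311). Dnah8 had 31.1, 50.1 and 25.3 against 19.9, 24.6 and 5.66 (-1.201, limma adjusted p 0.326). For Dnah12 and Dnah8 the Sox9cKO samples were lower than the Control samples of the same number, and neither adjusted p passed. The groups overlapped for Dnah12 but not for Dnah8.

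The abundant heavy chains did not share that pattern. Dnah5, an outer arm motor whose loss is a frequent cause of primary ciliary dyskinesia, had 736, 719 and 889 normalized reads in Control and 236, 869 and 798 in Sox9cKO. Sox9cKO replicate 1 stood apart from the other 5 samples. The log2 fold change of -0.51 (limma adjusted p 0.634) became 0.10 without that sample. Dnah7b had 678, 527 and 656 in Control and 439.7, 596 and 878 in Sox9cKO, a log2 fold change of -0.01 (adjusted p 0.992 by limma). Dnah7a, Dnah7b and Dnah7c are near copies, so the split of reads between them is uncertain. Sox9cKO replicate 1 held the lowest value of all 6 samples for 21 of the 71 tested members (29.6%), and for 21.1% of all tested genes.

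In the other direction, Dnah11, the left-right and airway outer arm chain, had 59.7, 98.4 and 51.8 normalized reads in Control and 60.7, 166 and 225 in Sox9cKO (log2 fold change 0.96, limma adjusted p 0.374). Dnah9, its close relative, had 24.4, 20.4 and 14.98 in Control and 25.9, 26.5 and 38.5 in Sox9cKO (0.58, limma adjusted p 0.410). Dnah9 was the heavy chain whose Sox9cKO values lay wholly above the Control values, and Dnah11 overlapped. The heavy chains as a whole summed to 150.5, 179.8 and 184 normalized reads per kilobase of exon in Control and 81.7, 148 and 168 in Sox9cKO. These sums overlapped between groups, with the lowest in Sox9cKO replicate 1.

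The intermediate and light chains, which hold the motors on the microtubule, pointed the other way. All 5 tested had a log2 fold change above 0, with a median of 0.47 and none called by limma, and 1 had an unadjusted p under 0.05. Among all tested genes 54.2% were above 0, 17.8% had an unadjusted p under 0.05 by limma and 13.4% lay wholly above. In 3 of the 6 fits that left out 1 sample, 1 of the 5 was below 0, and under quantile normalization and TMM factors all 5 stayed above. Dnai4 had 103, 108 and 119 normalized reads in Control and 120.4, 169 and 185 in Sox9cKO, with no overlap (log2 fold change 0.50, limma adjusted p 0.273). Dnai2, an outer arm intermediate chain named after its values were seen, had 39.5, 74.2 and 69.1 against 93.5, 80.3 and 77.0, also with no overlap (0.50, adjusted p 0.424). Dnal1, an outer arm light chain, had 157, 141 and 211 against 186, 252 and 264 (0.47, limma adjusted p 0.327), and its groups overlapped. Dnai1, the partner of Dnai2, was below the limit for testing with 9.25, 8.35 and 2.30 in Control and 4.97, 9.45 and 3.40 in Sox9cKO. The 7 genes summed to 115, 102 and 109 normalized reads per kilobase in Control and 124, 141 and 139.9 in Sox9cKO, without overlap, while the heavy chain sums overlapped. The difference between the 2 classes of chains was not tested.

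**Figure D4:**
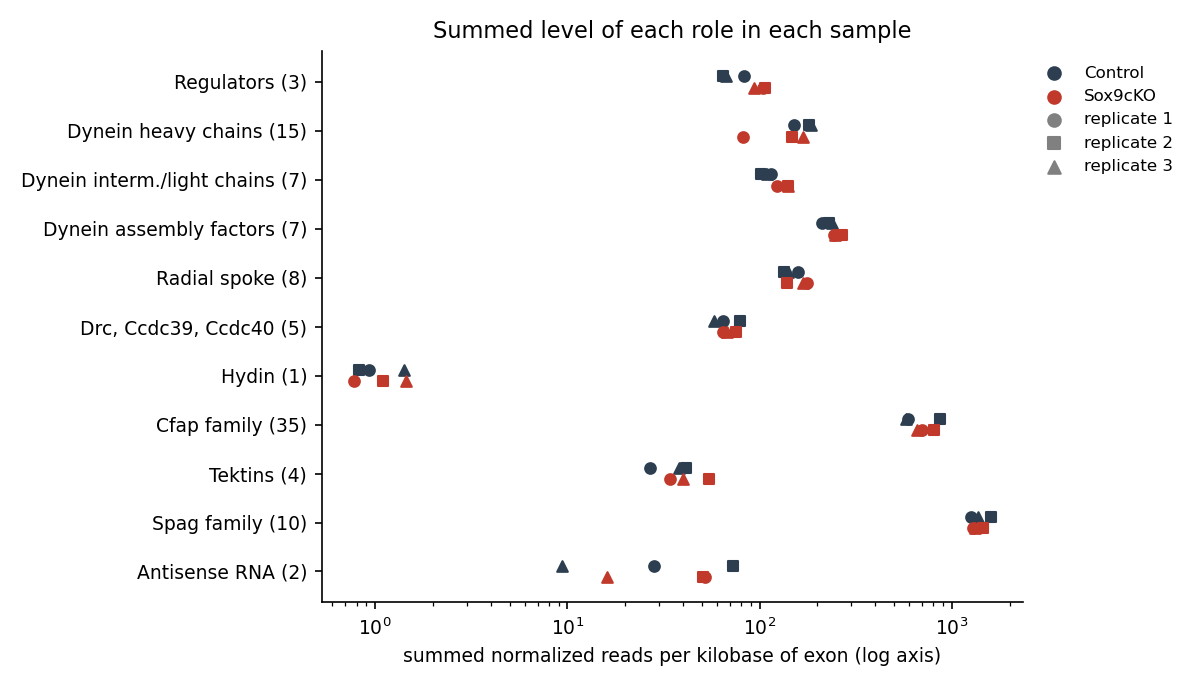
Summed normalized reads per kilobase of exon (horizontal log axis) of the genes of each role in each of the 6 samples, with the number of genes in parentheses. The regulators, the dynein intermediate and light chains and the assembly factors have all 3 Sox9cKO sums above the 3 Control sums, and the heavy chain sum is lowest in Sox9cKO replicate 1. The regulator sum is mostly Foxj1, with a mean of 77.2 per kilobase beside 6.89 for Ccno and 2.30 for Mcidas. Ccno and Mcidas had lower means in Sox9cKO than in Control. Without division by length the assembly factor sums overlap, 1458 to 1613 normalized reads in Control and 1491 to 1792 in Sox9cKO.

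The dynein assembly factors, which fold and preassemble the motors in the cytoplasm, split evenly, 3 above 0 and 3 below among 6 tested. Dnaaf5 (ENSMUSG00000025857) had 249.7, 287 and 334 normalized reads in Control and 389, 419.6 and 428 in Sox9cKO, and the groups did not overlap. The mean went from 290.2 ± 42.3 to 412 ± 20.5 (SD, n = 3), a log2 fold change of 0.51 with a limma adjusted p of 0.134, 0.0594 in the blocked fit. Dnaaf9, the most abundant of the class, had 1099, 1088 and 1183 against 1014, 1298 and 970.2 (-0.05, limma adjusted p 0.897). Dnaaf1, named after its values were seen, had 15.1, 32.5 and 23.04 in Control and 5.97, 11.3 and 7.92 in Sox9cKO. Its groups did not overlap, and its log2 fold change of -1.36, the lowest among tested members, had a limma adjusted p of 0.155.

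Radial spoke genes also went both ways, 4 above 0 and 3 below among 7 tested, with a median of 0.07, none called by limma and 1 with an unadjusted p under 0.05. Among all tested genes 54.2% were above 0 and 17.8% had an unadjusted p under 0.05 by limma. Rsph4a, a spoke head protein found in motile cilia, had 26.1, 17.6 and 19.6 normalized reads in Control and 34.8, 42.5 and 55.5 in Sox9cKO. The groups did not overlap, and the log2 fold change was 1.03 (standard error 0.30; limma adjusted p 0.135, 0.0983 in the blocked fit). Rsph9, another spoke head gene and the most abundant of the class by reads, had 120.2, 106 and 109 against 110.4, 115 and 138 (0.11, limma adjusted p 0.798). Rsph3a, a spoke stalk gene with a near copy in Rsph3b, had a log2 fold change of 0.07 (adjusted p 0.929 by limma). Rsph1, a spoke head gene on the multiciliated marker list, had 20.2, 19.5 and 8.06 in Control and 38.8, 7.56 and 1.13 in Sox9cKO. The Sox9cKO samples held both its highest and its lowest value.

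For the nexin-dynein regulatory complex and the ruler proteins Ccdc39 and Ccdc40, which set the spacing of the repeats along the doublet, 3 genes were above 0 and 2 below. Ccdc39 had 159.7, 55.7 and 135 normalized reads in Control and 105, 146 and 149 in Sox9cKO (log2 fold change 0.31, limma adjusted p 0.745). Its partner Ccdc40, named after its values were seen, had 13.4, 23.2 and 8.06 against 18.9, 30.2 and 22.6 (0.74, limma adjusted p 0.441), and both overlapped between groups. Drc3 had a log2 fold change of -0.10 (adjusted p 0.868 by limma). Hydin, the large central pair protein, had 16.8, 14.8 and 25.3 in Control and 13.9, 19.8 and 26.04 in Sox9cKO (0.06, limma adjusted p 0.959). Its level of 1.08 normalized reads per kilobase stood at percentile 0.247 of tested genes, over an exon length of 18037 bases.

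The Cfap genes, a mixed group named for their place in cilia and flagella, held the called gene. Cfap44 (ENSMUSG00000071550), a protein of the tether that links inner arm dynein to the doublet, had 38.7, 43.6 and 48.4 normalized reads in Control and 84.6, 116 and 117 in Sox9cKO. Every Sox9cKO value was above every Control value, and the mean went from 43.6 ± 4.86 to 106 ± 18.4 (SD, n = 3). The log2 fold change was 1.25 (standard error 0.23; limma adjusted p 0.0347, 0.0168 in the blocked fit), and the pairs gave 1.11, 1.39 and 1.25. edgeR (adjusted p 0.0426) and DESeq2 (adjusted p 0.0017) called it too. In the 6 fits that left out 1 sample the log2 fold change stayed between 1.17 and 1.40. It kept its call only without Sox9cKO replicate 1, with limma adjusted p values from 0.0393 to 0.148 over the 6 fits. Per kilobase its level was at percentile 13.61 of tested genes. Cfap43, its partner in the tether and named after its values were seen, was below the limit for testing and had lower Sox9cKO values, 12.6, 13.9 and 14.98 against 3.98, 5.67 and 5.66 (adjusted p 0.138 with limma when no filter was used).

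Cfap69 (ENSMUSG00000040473), a central pair protein also known from olfactory cilia, had 166, 229 and 189 normalized reads in Control and 553, 286 and 451 in Sox9cKO. The groups did not overlap, and the mean went from 195 ± 31.8 to 430.0 ± 135 (SD, n = 3). Its log2 fold change was 1.10 (standard error 0.26), with a limma adjusted p of 0.0805, 0.0516 in the blocked fit. DESeq2 gave an adjusted p of 0.00328, and limma gave 0.0331 without Sox9cKO replicate 2, the lowest sample of its group.

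Among all 23 tested Cfap genes 14 were above 0 and 9 below, and the median was 0.23. The share above 0 was 54.2% over all tested genes. The Sox9cKO values lay wholly above the Control values for 5 and wholly below for 0, against 13.4% and 10.8% of all tested genes. Of the 12 Cfap genes under the filter, 0 lay wholly above and 6 wholly below, against 3.07% and 19.7% of all genes under it. Without a filter 16 of 35 Cfap genes were above 0 and 19 below, with a median of -0.09. After Cfap20, the members of this family with the most reads were Cfap69 and then Cfap36, and the groups did not overlap for either of these. Cfap20, a microtubule inner protein that is also made in cells without motile cilia, had 499, 381 and 442 in Control and 382, 403 and 383 in Sox9cKO (log2 fold change -0.17, limma adjusted p 0.594). Cfap53, a gene of left-right patterning, was named after its values were seen and had 54.6, 712 and 85.3 in Control against 142, 429 and 123 in Sox9cKO. Its direction was not stable: limma gave a log2 fold change of 0.39 (adjusted p 0.880), while the mean was 284 in Control and 232 in Sox9cKO, and edgeR and DESeq2 gave -0.35 and -0.34. Replicate 2 was the highest sample of each group for Cfap53, and the spread within groups was larger than the difference between them.

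**Figure D5:**
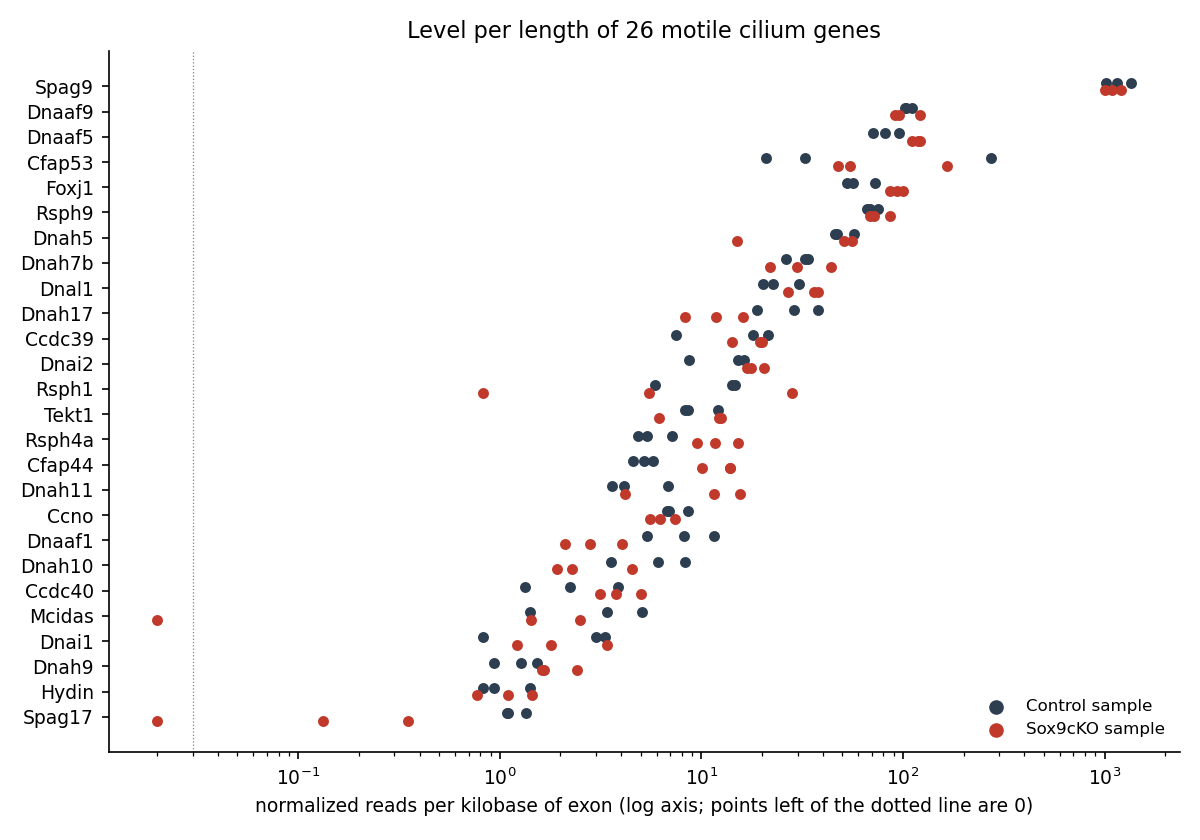
Normalized reads per kilobase of exon (horizontal log axis) of 26 motile cilium genes, 1 point a sample, ordered by mean level; points left of the dotted line are 0. Spag9 lies between 1001 and 1353, Foxj1 between 52.7 and 101, and Hydin between 0.772 and 1.44.

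The tektins, filament proteins inside the doublet wall, and the Spag genes gave no call. Tekt1 and Tekt2 had log2 fold changes of 0.05 and 0.22 (limma adjusted p 0.971 and 0.785), both with overlapping groups. Spag9 was the most abundant member, with 11345, 15171 and 12958 normalized reads in Control and 11224, 13538 and 12136 in Sox9cKO (-0.09, limma adjusted p 0.797). At percentile 98.3 per kilobase it alone took more reads than the other 96 members together, whose sum was 7659 to 9387 per sample. Spag7 had a log2 fold change of 0.12 (adjusted p 0.772 by limma). Spag5 had 53.8, 110.4 and 44.9 against 43.8, 55.8 and 48.7 (-0.38, limma adjusted p 0.638), and was named after its values were seen. The antisense RNA Dnah2os had 23.5, 62.2 and 6.91 in Control and 44.8, 43.5 and 13.585 in Sox9cKO, and Spag17os had 3.36, 2.78 and 5.76 against 0, 0 and 1.13. Without knowing whether counting used the strand, reads of these RNAs cannot be told apart from those of Dnah2 and Spag17. Exons of 44 of the 97 members overlap another annotated gene.

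The 26 members with a mean under 10 normalized reads leaned lower in Sox9cKO, as did other genes at that level. Their log2 fold changes were below 0 for 19 and above 0 for 7, with a median of -0.82. Over all 8149 genes under the filter, 73.1% were below 0 and the median was -0.52. The Sox9cKO values lay wholly below the Control values for 10 of the 26 and wholly above for 2 (Tekt4 and Tekt5), against 19.7% and 3.07% of the genes under the filter. The Sox9cKO libraries also had fewer genes with at least 1 read, 23743 to 24199 against 24568 to 25084 in Control, and the part of this in the lower values was not tested. The following scarce genes were named after their values were seen. Spag17, a central pair protein, had 9.25, 9.28 and 11.5 normalized reads in Control and 2.98, 0 and 1.13 in Sox9cKO. Dnah3 had 14.3, 19.5 and 10.4 against 1.99, 3.78 and 2.26, and Dnah7a had 4.20, 12.1 and 9.22 against 0.995, 0 and 1.13. In limma without a filter their adjusted p values were 0.0826, 0.0596 and 0.0736, so none was called.

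Other motile axoneme genes and intraflagellar transport genes gave no call by limma without the block. Of 59 listed axoneme genes outside the member families 49 were in the table and 34 were tested. Their median log2 fold change was 0.24 with 25 above 0, and 8 had an unadjusted p under 0.05. Among all tested genes 54.2% were above 0 and 17.8% had an unadjusted p under 0.05 by limma. Lrriq1, a protein with leucine-rich repeats and named because the block changed its call, had 24.4, 25.99 and 29.95 normalized reads in Control and 43.8, 65.2 and 80.4 in Sox9cKO. Its groups did not overlap, with a log2 fold change of 1.17 (adjusted p 0.0954, 0.0422 in the blocked fit). All 31 listed intraflagellar transport genes, which build primary and motile cilia alike, were tested, with 25 above 0 and a median of 0.15. An unadjusted p under 0.05 was found for 3, beside the same shares of 54.2% and 17.8% over all tested genes. Ift22, a small GTPase of the transport train, had 133, 147 and 204 against 199.98, 269 and 305 (0.68, limma adjusted p 0.191, 0.0416 in the blocked fit), and was named for the same reason. The blocked fit called 1 gene on each list, against 8.05% of all tested genes.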

How the data were processed

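The authors deposited 1 table of normalized signal, in which the values show that the counts of every sample had been divided by its size factor. The submitters' processing notes name DESeq2 1.36.0 and GRCm39. Libraries were stranded total RNA with ribosomal RNA depleted and with molecular identifiers, per the labels. The aligner, the counter and the use of strand and identifiers are not given in the sources used here. Every value was a whole multiple of the sample's step (100% within 0.001 reads), so reads could be recovered, and the lowest total of a gene was 10 reads.

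Values were tested as log2(value + 1) over all 17153 genes with a mean of at least 10, with limma 3.58.1 in R 4.3.3 (eBayes with trend, 3 against 3, two-sided, Benjamini-Hochberg, threshold 0.05). The pseudocount understates changes of low genes. Replicate numbers come from the sample labels. Deviations from the group means of same-numbered samples correlated across genes at 0.207, 0.472 and 0.542, and those of other pairs at -0.437 to 0.0476. The numbers were therefore taken to pair the samples, and a blocked fit with this number as a term was run. What same-numbered samples share is not known. Every listed endothelial marker was lowest in replicate 3 of each group. Kdr had 2534, 7929 and 347 normalized reads in Control and 6660, 7904 and 1286 in Sox9cKO. The part of such cell content in the correlation was not tested. Alternatives were edgeR 4.0.16 with and without the block and DESeq2 1.42.0 on the recovered reads, quantile normalization, TMM factors, a minimum mean of 50, no filter, pseudocounts of 5 and 0.1, and leaving out each sample. Scripts were tested on simulated data, 5 draws with 200 changed genes each and no pairing of samples. At the same threshold 9.01% of limma's calls were false, 15.0% with the block, 10.1% with edgeR and 27.6% with DESeq2. Of changes of 1 on the log2 scale, limma recovered 10.8%, 6.03% with the block, edgeR 10.4% and DESeq2 33.3%. Calls made only by DESeq2 are to be read with these shares. Because the simulated samples were not paired, the shares with the block do not show how that fit performs on paired samples. How many of the calls made only with the block are false is therefore not known. Exon lengths (for levels per kilobase) and overlaps came from GENCODE M21 on GRCm38 and were found for all 97 members, and promoter windows from RefSeq (GRCm38.p6), matched by symbol for 74.

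Named genes were Foxj1, Mcidas, Gmnc, Ccno, Hydin and Sox9, called members, the 2 members of each role with the most reads, and the 6 tested members with the smallest p that were not called. Members and lists were chosen with earlier results of these data known.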

Additional observations from a re-analysis of the deposited data

How the results depend on the processing

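Counts of calls and single genes were recomputed under 16 alternatives, 6 of which left out 1 sample. Ccno, Dnah14, Dnah2os, Hydin, Rsph4a, Tekt1 and Tekt2 have no value at the minimum mean of 50, so 15 apply to them, and the role sums were compared only with and without division by length. Over all tested genes limma called 510, and 1381 with the replicate block, 1160 with edgeR and the replicate block and 1214 with DESeq2, while the fits that left out 1 sample gave 200 to 389. Members called went from 1 to 3 with the replicate block (Cfap44, Dnah10, Dnah17), 3 with edgeR and the replicate block (the same genes) and 3 with DESeq2 (Cfap44, Cfap69, Dnah17), and from 0 to 1 when 1 sample was left out. The other settings that kept all samples each called 1 member, Cfap44. The members' median log2 fold change was -0.03 without a filter and between 0.01 and 0.14 in the other alternatives. Of the pathway genes, 0 were called by limma, 2 with the replicate block and 1 with DESeq2. Beside Dnah10, Dnah17, Lrriq1 and Ift22, the replicate block changed no call of a gene named here. For these counts the cause was not tested.

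Dnah7b had a log2 fold change of 0.000813 with edgeR and 0.00571 with DESeq2. Leaving out 1 sample turned the sign of these genes, with ranges of -0.153 to 0.599 (Ccdc39), -0.179 to 0.0308 (Dnaaf9), -0.347 to 1.15 (Dnah2os), -0.840 to 0.0988 (Dnah5), -0.267 to 0.232 (Dnah7b), -0.243 to 0.0252 (Drc3), -0.146 to 0.282 (Hydin), -0.149 to 0.293 (Rsph3a), -0.0222 to 0.222 (Spag7), -0.193 to 0.0163 (Spag9), -0.121 to 0.361 (Tekt1) and -0.0128 to 0.425 (Tekt2). None of these genes was called in any of these fits. Groups of 3 and low read numbers limit what could be called, and an adjusted p above the threshold does not show that a gene did not differ.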
